A study of Aptenodytes patagonicus with 3 samples.

Results

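TNF receptor superfamily genes were examined in the pectoralis (breast) muscle of 3 artificially acclimated (AA) king penguin juveniles. The genes were the 10 receptors TNFRSF1A, TNFRSF1B, TNFRSF6B, TNFRSF8, TNFRSF10B, TNFRSF11A, TNFRSF11B, TNFRSF18, TNFRSF19 and TNFRSF21, and every probe set that the platform annotation assigns to one of these genes alone was taken. All 10 genes were found, on 18 of the 36813 probe sets of the array and among 12913 genes that the annotation names. Each bird was hybridized to its own Affymetrix GeneChip Chicken Genome Array, and the authors deposited 1 quantile-normalized log2 signal per probe set and bird.

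The AA birds were wild juveniles, taken before they had ever entered cold water, that completed their moult in captivity. They then went through 10 sessions of 5 hours in a tank of water at 8 °C, with 2 days from one session to the next. The labels give bird 2 as the male and birds 1 and 3 as the females. Captivity and immersion were common to all 3 birds, and the never-immersed and sea-acclimatized birds of the study were not analysed here, so the values describe AA muscle and the differences among AA birds, not a response to immersion. The probes were designed on chicken sequence, and a probe set reads brighter or dimmer with its fit to the penguin transcript. Levels were therefore compared between birds within a probe set, and the number of arrays limits the precision of every value.

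TNF receptors are cell surface proteins whose cysteine-rich outer part binds trimeric ligands of the TNF superfamily. Some carry an inner death domain that recruits adaptors and caspases, others bind TRAF adaptors that pass the signal to NF-kB and to stress kinases, and a few are secreted and take up ligand without signalling. In the skeletal muscle of mammals, TNF signalling through NF-kB is known for its part in muscle wasting. The study placed TNFRSF11A, TNFRSF18 and TNFRSF21 among its genes of non-mitochondrial generation of reactive oxygen species. It listed TNFRSF21 as lower in AA than in never-immersed birds, and TNFRSF11A and TNFRSF18 as not significant in that comparison.

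Skeletal muscle markers were bright on these arrays. Each marker gene was read from its brightest probe set. Of 20 listed markers, 15 were measured. A mean signal in the upper quartile of all probe sets, above 9.62 on the log2 scale, was found for 13 of these. Read the same way, 5312 of all 12913 genes were in that quartile. The exceptions among the markers were MYH7B and MYL2. Brightness also depends on the fit of each probe set, so this is a description of the arrays. In whole muscle, fewer cells of a type and less RNA per cell cannot be told apart. Of the 18 member probe sets, 5 had a mean in the lowest quartile of the array, below 7.88, and 2 in the upper quartile. On the brightest probe set of each member, 1 of the 10 genes was in the lowest quartile and 2 in the upper.

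**Figure D1:**
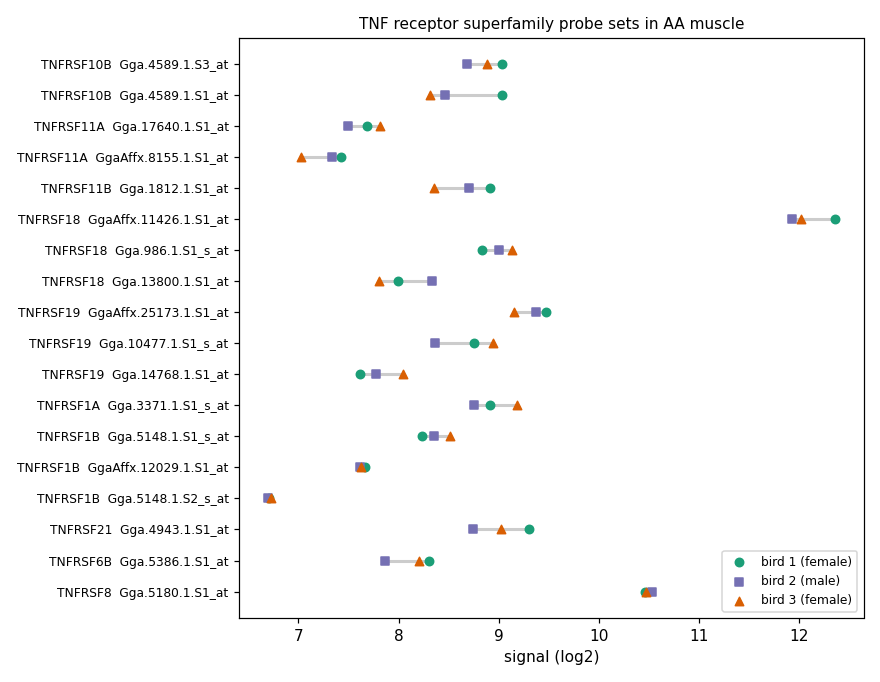
Log2 signal (x axis) of the 18 probe sets of 10 TNF receptor superfamily genes (rows) in the 3 AA birds, 1 point per bird, with grey lines over the range of the birds. The widest range is 0.72, on 1 probe set of TNFRSF10B, and the birds nearly coincide on 2 probe sets of TNFRSF1B and on that of TNFRSF8.

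Among receptors with a death domain, TNFRSF21 (death receptor 6) was measured on 1 probe set, Gga.4943.1.S1_at, which the study also used. It read 9.30 in bird 1, 8.74 in bird 2 and 9.02 in bird 3 (9.02 ± 0.28, SD, n = 3). The male was the lowest and the females differed from each other by 0.28 on the log2 scale. The male lay below the female mean by a log2 difference of -0.42 (95% interval -0.98 to 0.14, adjusted p = 0.64 from limma). With 1 male, this comparison leaves the difference of any single gene unsettled.

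TNFRSF1A, the receptor through which TNF triggers both death and NF-kB signalling, read 8.91 in bird 1, 8.75 in bird 2 and 9.18 in bird 3 (8.95 ± 0.22, SD, n = 3). The only probe set of TNFRSF1A, Gga.3371.1.S1_s_at, is of a type that can bind several transcripts. Here too the male was lowest, but the highest value came from bird 3. The log2 difference of the male from the female mean was -0.29 (95% interval -0.85 to 0.26, adjusted p = 0.75 from limma).

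TNFRSF10B encodes in humans a death receptor for the ligand TRAIL, and the chicken gene is known as an entry receptor of some avian leukosis viruses. On Gga.4589.1.S1_at bird 1 read 9.03, bird 2 read 8.47 and bird 3 read 8.31 (8.60 ± 0.38, SD, n = 3). This SD was the widest of the family, above that of 88.4% of all probe sets, and bird 1 stood 0.57 above the nearer of the other birds. The other probe set, Gga.4589.1.S3_at, read 9.04, 8.68 and 8.88 in birds 1, 2 and 3 (8.87 ± 0.18, SD, n = 3). Bird 1 was the highest on both probe sets, while bird 3 was the lowest on one and bird 2 on the other.

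TNFRSF1B, the second TNF receptor, has no death domain and is best known from leukocytes. On Gga.5148.1.S1_s_at it read 8.23 in bird 1, 8.35 in bird 2 and 8.51 in bird 3 (8.36 ± 0.14, SD, n = 3). The remaining probe sets were in the lowest quartile of the array and hardly differed between birds. GgaAffx.12029.1.S1_at read 7.67, 7.61 and 7.63 in birds 1, 2 and 3 (SD 0.027), and only 1.42% of all probe sets had a smaller SD. Gga.5148.1.S2_s_at read 6.71, 6.69 and 6.72 (SD 0.016), with 0.473% of all probe sets below it in SD and 0.25% below it in mean signal.

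TNFRSF8 (CD30), a receptor of activated lymphocytes, was the steadiest member outside the dim quartile of the array. Its probe set Gga.5180.1.S1_at read 10.46 in bird 1, 10.53 in bird 2 and 10.47 in bird 3 (10.48 ± 0.038, SD, n = 3). Only 2.64% of all probe sets had a smaller SD, although the median SD in its quartile of signal was 0.22. In the RefSeq genes of the penguin assembly bAptPat1.pri.cur, TNFRSF8 is the next protein-coding gene after TNFRSF1B.

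TNFRSF18 (GITR), known from regulatory T cells of mouse and human, was measured on 3 probe sets that ranked the birds in 3 different orders. GgaAffx.11426.1.S1_at, the probe set that the study used, read 12.36 in bird 1, 11.93 in bird 2 and 12.02 in bird 3 (12.10 ± 0.23, SD, n = 3), with bird 1 the highest and the male the lowest. Of all probe sets, 97.4% were dimmer. The other probe sets of the gene were far dimmer too, so the level of TNFRSF18 was not judged from this signal. Gga.986.1.S1_s_at read 8.84, 9.00 and 9.13 in birds 1, 2 and 3 (8.99 ± 0.15, SD, n = 3), where bird 1 was the lowest. On Gga.13800.1.S1_at the values were 7.99, 8.33 and 7.81 (8.04 ± 0.27, SD, n = 3), and the male was the highest. The log2 difference of the male from the female mean accordingly went from -0.26 on the first to 0.43 on the last of these, and neither passed (adjusted p = 0.78 and 0.62 from limma). TNFRSF18 lies beside TNFRSF4 in the penguin assembly, and TNFRSF4 was not analysed here.

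TNFRSF11A (RANK), the receptor that drives osteoclast formation, gave low signals on both of its probe sets. GgaAffx.8155.1.S1_at, the probe set used by the study, read 7.43 in bird 1, 7.34 in bird 2 and 7.02 in bird 3 (7.26 ± 0.21, SD, n = 3), and only 7.62% of all probe sets were dimmer. Gga.17640.1.S1_at read 7.68, 7.49 and 7.82 (7.66 ± 0.16, SD, n = 3). Bird 3 was the lowest on the first and the highest on the second.

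TNFRSF11B (osteoprotegerin), the secreted decoy that binds the same ligand as RANK, read 8.91 in bird 1, 8.70 in bird 2 and 8.35 in bird 3 (8.65 ± 0.28, SD, n = 3). The females were the extremes here, 0.56 apart, with the male between them. TNFSF11 (RANKL), the shared ligand, read 8.03 in bird 1, 8.01 in bird 2 and 8.23 in bird 3, with birds 1 and 2 nearly equal.

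TNFRSF6B, a secreted decoy for Fas ligand and TNFSF15 in humans, read 8.31 in bird 1, 7.87 in bird 2 and 8.20 in bird 3 (8.13 ± 0.23, SD, n = 3). The females lay 0.10 apart and the male below both, by a log2 difference of -0.39 from their mean (95% interval -0.92 to 0.14, adjusted p = 0.65 from limma). TNFSF15 itself read 8.93 in bird 1, 8.77 in bird 2 and 9.02 in bird 3, with the male again the lowest (adjusted p = 0.82 from limma).

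TNFRSF19 (TROY), a receptor known from the nervous system and from skin appendages, again had a different order of birds on each of its 3 probe sets. Gga.10477.1.S1_s_at read 8.75 in bird 1, 8.36 in bird 2 and 8.94 in bird 3 (8.68 ± 0.29, SD, n = 3). The log2 difference of the male on this probe set, -0.48, was the largest in size of the family and had its smallest adjusted p, 0.57 from limma (95% interval -1.02 to 0.061). GgaAffx.25173.1.S1_at read 9.47, 9.38 and 9.15 in birds 1, 2 and 3 (9.33 ± 0.17, SD, n = 3). In turn, Gga.14768.1.S1_at read 7.62, 7.77 and 8.04 (7.81 ± 0.21, SD, n = 3). Bird 3 was the lowest on the former and the highest on the latter, and the male lay between the females on both.

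**Figure D2:**
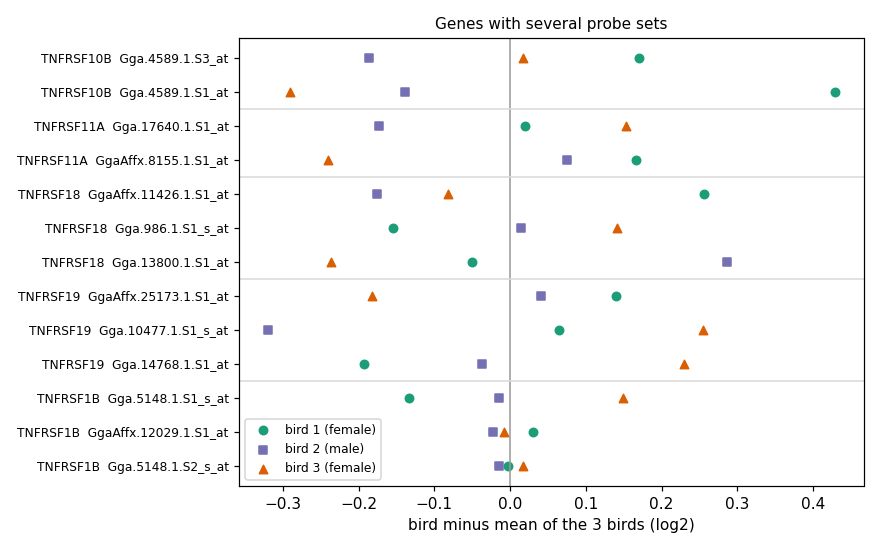
Each bird's log2 signal minus the mean of the 3 birds (x axis) for the 13 probe sets of the 5 genes measured more than once, with 1 point per bird and lines between genes. In none of the 5 genes do any 2 probe sets rank the birds alike.

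Probe sets of 1 gene often ranked the birds differently, among the members and over the whole array. The 5 genes with several probe sets gave 11 pairs of probe sets, of which 3 had the same bird as the highest, 1 had the same bird as the lowest and 0 had the same order of all birds. Over all genes of the array with several probe sets, 36.6% of 23684 pairs shared the highest bird, 35.7% the lowest and 19.4% the whole order. Pairs of 1 gene share probe sets and are not independent, so these shares are descriptions. Of the 18 member probe sets, 5 are of types that can bind several transcripts.

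The birds differed in these genes about as much as in the array as a whole. The median SD over the 18 probe sets was 0.213, against 0.191 over all probe sets, and 10 of the 18 had an SD above the median of their own quartile of signal. With the brightest probe set of each gene the median SD was 0.198 for the 10 genes and 0.201 for all genes. Without bird 3 the medians were 0.128 for the members and 0.159 for all probe sets, and without bird 2 they were 0.195 and 0.14. Without bird 1 they were 0.173 and 0.174. A range over 1 log2 unit was found for 0 of the 18, while 4.56% of all probe sets had one. A range over 0.5 was found for 5 of the 18, on TNFRSF10B, TNFRSF11B, TNFRSF18, TNFRSF19 and TNFRSF21, beside 29.3% of all probe sets.

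**Figure D3:**
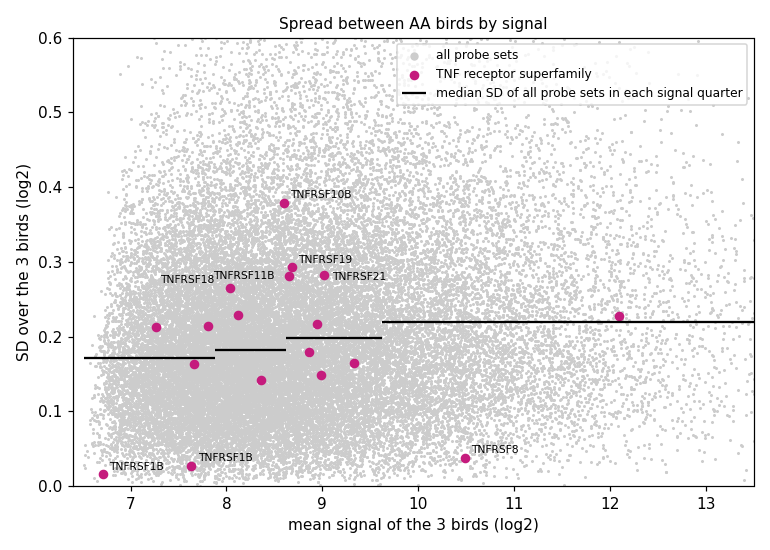
SD over the 3 birds (y axis, log2) against their mean signal (x axis, log2) for the member probe sets and for all probe sets, with black lines at the median SD of all probe sets in each quartile of signal. The axes are cropped, which keeps every member in view but not every probe set, and 3 member probe sets, on TNFRSF1B and TNFRSF8, lie near the bottom.

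Sex was the one factor that the labels gave within the group, and the male was compared with the females by limma over the whole array. The fit, with 1 residual degree of freedom, assumes that males spread as much as these females did. No member passed an adjusted p under 0.05, 0 of 18 beside 0% of all probe sets, and 0 of 18 had an unadjusted p under 0.05, beside 9.78% of all probe sets. The male lay below both females on 9 of the 18, beside 31.1% of all probe sets, and above both on 2 of the 18, beside 41.4%. The 9 came from TNFRSF1A, TNFRSF1B (on 2 probe sets), TNFRSF6B, TNFRSF10B, TNFRSF11A, TNFRSF18, TNFRSF19 and TNFRSF21, and the 2 from TNFRSF8 and TNFRSF18. Some of these ranks rest on nearly equal values. On the 2 dim probe sets of TNFRSF1B the male was below the nearer female by only 0.015 and 0.011. On TNFRSF8 it was above the nearer female by 0.062. Probe sets of 1 gene are also not independent. On the brightest probe set of each gene, the male was below both females for 6 of 10, beside 32.5% of all genes. It was above both for 1 of 10, beside 41.5%. The size of the male difference exceeded that of the difference between the females on 9 of 18 member probe sets and on 52.4% of all. Of the 10 genes, 9 were found by symbol among the penguin RefSeq genes, 0 of them on chromosome Z or W. The gene not found was TNFRSF10B, so its chromosome was left unknown here.

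**Figure D4:**
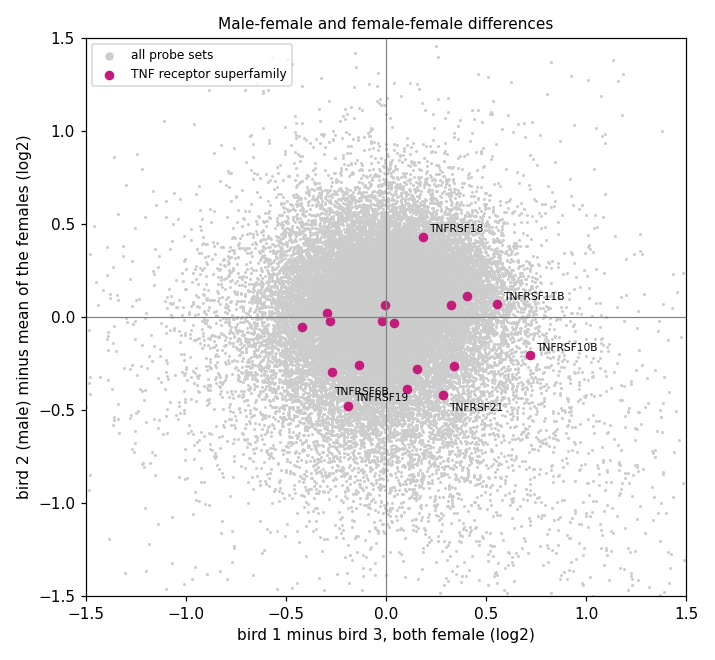
Log2 signal of the male minus the mean of the females (y axis) against bird 1 minus bird 3, both female (x axis), for the member probe sets and for all probe sets. Both axes are limited to 1.5 in either direction, which holds all 18 members, and they lie inside the cloud of all probe sets.

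Bird 1 was the highest on 9 of the 18 member probe sets, beside 27.7% of all, and the male on 2, beside 41.4%. On the brightest probe set of each member gene, bird 1 was the highest for 6 of 10, beside 27.5% of all genes. Erythrocyte markers were also often the highest in bird 1. Over 13 of 24 listed markers, several of which muscle also expresses, the mean log2 signal was 11.85, 11.17 and 11.34 in birds 1 to 3 in turn. Bird 1 was the highest for 9 of the 13, beside 27.5% of all genes on their brightest probe sets. It was the lowest for 0, beside 34.3% of all genes. Over 18 of 22 listed leukocyte markers the mean was 9.01, 9.14 and 9.10 in birds 1, 2 and 3. The male was the highest for 11 of the 18, beside 41.5% of all genes, and bird 1 for 2, beside 27.5%. Of the 18, 3 were in the lowest quartile of the array, CD3E, ITGB2 and CD83. The part of either cell type in the values of the receptors was not tested.

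Means over the other marker lists are given for birds 1, 2 and 3 in turn. They were 9.80, 9.71 and 9.67 for 12 endothelial genes and 10.10, 9.81 and 9.76 for 13 fibroblast and matrix genes. Adipocyte genes, 9 of 10 listed, gave 9.74, 9.87 and 9.94. Osteoclast and osteoblast genes, 12 of 15 listed, gave 9.65, 9.84 and 9.76. For the 15 muscle genes the means were 13.14, 13.24 and 13.26. By these means, bird 1 was the highest in the endothelial and the fibroblast lists and the lowest in the other lists of this paragraph. By gene, the male was the highest for 6 of the 12 endothelial genes, bird 1 for 5 and bird 3 for 1. Bird 1 was the highest for 7 of the 13 fibroblast and matrix genes. It was the lowest for 4 of the 9 adipocyte genes and for 8 of the 12 osteoclast and osteoblast genes. Of the 15 muscle genes, 11 were counted as the lowest in bird 1, and ties with bird 1 were counted for it. All birds read the same on ACTA1 and MYL1, and birds 1 and 2 read the same on TTN. Over all genes on their brightest probe sets, the male was the highest for 41.5%, bird 1 for 27.5% and bird 3 for 31.0%. Bird 1 was the lowest for 34.3% of all genes.

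Ligands of the TNF superfamily were measured for 8 of 18 listed genes. The male was above both females for 3 of the 8, beside 41.5% of all genes, and below both for 3, beside 32.5%. TNFSF4 (OX40 ligand) had the widest range, reading 9.27 in bird 1, 10.13 in bird 2 and 10.19 in bird 3 (9.86 ± 0.51, SD, n = 3), with bird 1 well below the others. EDA, the ectodysplasin ligand of skin appendages, read 9.14, 9.62 and 9.26 in birds 1, 2 and 3 (9.34 ± 0.25, SD, n = 3). TNFSF8, the ligand of the steady receptor TNFRSF8, read 8.85, 9.04 and 8.67 (8.85 ± 0.18, SD, n = 3), and TNFSF10 (TRAIL), the ligand of TNFRSF10B in humans, read 9.59, 9.24 and 9.55 (9.46 ± 0.19, SD, n = 3). The male was the highest for TNFSF8 and the lowest for TNFSF10.

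Further receptors of the superfamily were measured for 10 of 18 listed genes, with a median SD of 0.13, against 0.201 over all genes, and 0 past the test. An unadjusted p under 0.05 was found for 2 of the 10, beside 12.5% of all genes on their brightest probe sets. The widest ranges were those of TNFRSF13B (TACI, a B cell receptor), which read 9.36 in bird 1, 9.78 in bird 2 and 9.05 in bird 3, of RELT, with 8.75, 9.20 and 8.52, and of EDAR, the ectodysplasin receptor, with 7.73, 7.20 and 7.59. The male was the highest for TNFRSF13B and RELT on these probe sets and the lowest on another probe set of each, at 8.15 for TNFRSF13B and 7.42 for RELT. FAS, the receptor of Fas ligand, read 9.74, 9.97 and 9.73 in birds 1, 2 and 3, with the females within 0.01 of each other. Of the 10 further receptors, the male was above both females for 5, beside 41.5% of all genes. It was below both for 3, beside 32.5%. Bird 1 was the highest for 3 of the 10, beside 27.5% of all genes, so the lean of the members was not seen in these receptors.

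**Figure D5:**
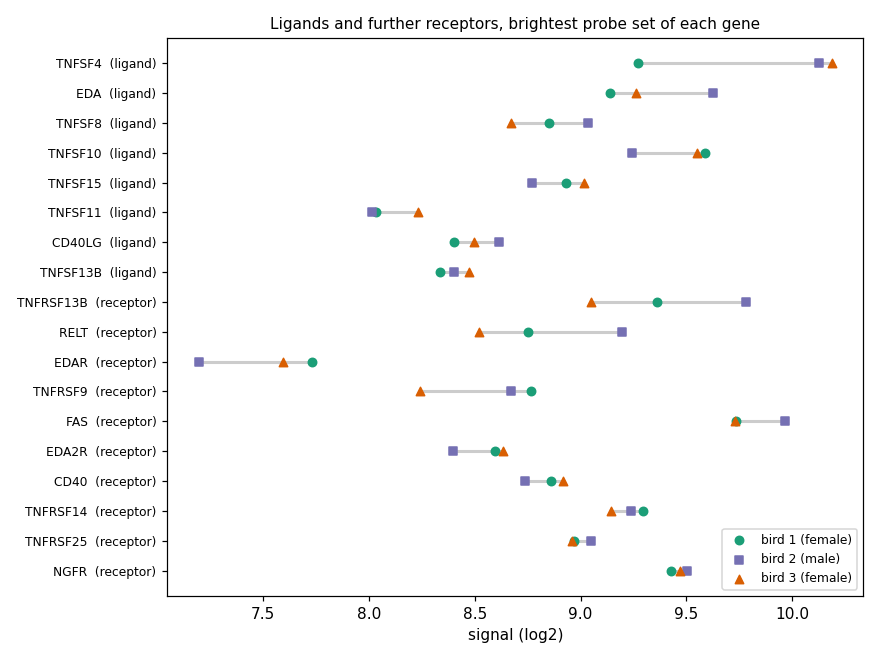
Log2 signal (x axis) of 8 ligands and 10 further receptors (rows) in the 3 AA birds, 1 point per bird on the brightest probe set of each gene, with grey lines over the range. TNFSF4 has the widest range, 0.91, with bird 1 at 9.27 and the others above 10.

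Downstream of the receptors, 24 of 28 listed adaptor and death pathway genes were measured, with a median SD of 0.19. TRAF3 read 8.11, 8.81 and 8.58 in birds 1, 2 and 3, TRAF4 read 8.41, 9.11 and 8.92, and TRAF7 read 10.84, 10.16 and 10.47, these being the widest ranges of the list. Bird 1 was the lowest for the first pair and the highest for TRAF7. TRAF3 had 2 other probe sets. On 1 of them birds 1, 2 and 3 read 7.95, 8.28 and 8.11, in the same order as on its brightest. On the other the values were 7.75, 7.71 and 8.05, where the male was the lowest. None of the 24 passed the test, and 0 had an unadjusted p under 0.05, beside 12.5% of all genes. The male was above both females for 8 of the 24, beside 41.5% of all genes, and below both for 9, beside 32.5%.

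In the NF-kB and stress kinase list, 21 of 25 genes were measured, with a median SD of 0.16 and 0 past the test. An unadjusted p under 0.05 was found for 3 of the 21, close to the 12.5% of all genes. For 10 of the 21 the male was above both females, beside 41.5% of all genes, and for 9 below both, beside 32.5%. The male difference was larger in size than that between the females for 16 of the 21, beside 54.8% of all genes. TAB2, which links TRAF6 to the kinase TAK1, read 10.43 in bird 1, 9.40 in bird 2 and 10.42 in bird 3. The log2 difference of the male was -1.03 (limma standard error 0.23, adjusted p = 0.22 from limma). On 3 of its 5 other probe sets the male was also the lowest, and bird 1 was the highest on all 6. MAPK14 (the p38 alpha kinase) read 9.67, 9.01 and 10.11 in birds 1, 2 and 3, whereas on its 3 other probe sets the male was the highest. MAPK9 (a JNK kinase) read 8.34, 8.87 and 8.23, with the male the highest (adjusted p = 0.46 from limma).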

How the data were processed

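Muscle RNA of 3 AA birds was hybridized to 1 array each. By the study's methods, the authors summarised probes with MaxRS, a method for hybridization across species, and deposited log2 signals after quantile normalization. The number of arrays normalized together was not stated. Such normalization gives the arrays nearly equal distributions (medians 8.62 to 8.63) and removes overall differences between birds. Processing notes of the submitters list limma.

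The annotation named 1 gene for 26041 probe sets, several for 170 and none for 10602. Every probe set of a member was kept, and other genes were read from their brightest probe set. The male was compared with the females with limma 3.58.1 in R 4.3.3 (lmFit and eBayes, Benjamini-Hochberg over all probe sets). A prior run on simulated data required only that the mean estimated difference match the change put in. It set no bar on recovered or false calls, so it does not show how well the comparison detects a difference. The members and the 11 gene lists were chosen with earlier results of these data known. All member probe sets are named, and the 3 genes with the widest range in each pathway list. FAS, TNFSF10, TNFSF11, TNFSF15 and the markers named singly were added after their values were seen. Alternatives were other normalizations, probe set filters, moderation settings and leaving out each bird.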

Additional observations from a re-analysis of the deposited data

How the results depend on the processing

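No member passed the test of the male against the females with quantile normalization run again, median centring, the single-transcript probe sets alone, the dimmest 25% left out, the brightest probe set of each gene, an intensity trend or robust moderation in limma, and the smallest adjusted p of a member lay between 0.526 and 0.64 in these. Of all probe sets, 5 passed with single-transcript probe sets alone, 2 with the trend and 22 with robust moderation. Without 1 female no residual degree of freedom is left, so no test was run. The male difference turned its sign on 7 of the 18 probe sets. On these the male lay between the females, so the change of sign was fixed in advance. Over the whole array the male lay neither above nor below both females on 10126 of 36813 probe sets. The median SD of the members was 0.213 with all birds, 0.128 without bird 3, 0.173 without bird 1 and 0.195 without bird 2, and lay between 0.198 and 0.227 under the normalizations and probe set filters. The median range in place of the SD was 0.414. With the mean in place of the median, the SD was 0.193 for the members and 0.225 for all probe sets, the reverse of the order of the medians. No range exceeded 1 log2 unit under either of the other normalizations. Filters and left-out birds cannot widen a range, so there the count of 0 was fixed in advance. At a threshold of 0.5 the count as deposited was 5, and 2 of 10 on the brightest probe sets. Read the same way, 4291 of all 12913 genes had a range over 0.5. No detection calls were used here, so dim probe sets such as those of TNFRSF11A cannot be told from background.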
